A study of Mus musculus with 2 samples.

Results

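Btbd11, Rnf220, Dach2, Sdk2, Gsg1l, Fbln2 and Pgf are 7 of the 32285 genes counted in single nuclei of the mouse cerebellum at postnatal day 1. They were chosen by their low levels in granule neuron progenitors (GNPs), or in all nuclei together, of a library labelled Tox3 conditional knockout (cKO). Each symbol had 1 row in the deposited matrices. The ratios in GNPs and in the whole library are therefore a description and support nothing. The question asked here was where else in the cerebellum these genes are expressed, and whether they differ there between the libraries.

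There were 2 libraries, each from 12 pooled cerebella. The cKO mice were Nestin-cre;Tox3f/f and the controls were littermates without Cre, given as Tox3f/f in the genotype field and as Tox3f/f or Tox3f/+ in the library name. The floxed allele was derived from a KOMP Tox3 line after FLP recombination, and the Nestin-Cre line was on a B6.Cg background. The Cre transgene was carried only by the cKO group, so its presence and the deletion cannot be told apart, and with 1 library per group neither can the library and the genotype. Nestin-Cre acts in neural precursors and thus in their whole progeny, neurons and macroglia alike, whereas microglia do not arise from the neural lineage.

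GNPs divide in the outer layer of the neonatal cerebellum under the control of Atoh1 and of Sonic hedgehog signalling, and their daughters leave the cycle to become granule neurons (GN). The 7 genes have no common pathway. Dach2 encodes a transcriptional cofactor of the Dachshund family and Rnf220 a RING-type E3 ubiquitin ligase. Btbd11 encodes an ankyrin repeat and BTB domain protein, Sdk2 (sidekick 2) an immunoglobulin superfamily adhesion molecule used in synaptic matching, and Gsg1l an auxiliary subunit of AMPA-type glutamate receptors. Fbln2 encodes fibulin 2, a secreted protein of the extracellular matrix, and Pgf encodes placental growth factor, a ligand of the receptor Flt1.

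On the mouse genome build GRCm38 the genes lie at chr10:85386814-85660292 (Btbd11), chr4:117271463-117497052 (Rnf220), chrX:113297510-113836386 (Dach2), chr11:113776374-114067046 (Sdk2), chr7:125878420-126082411 (Gsg1l), chr6:91212455-91272540 (Fbln2) and chr12:85166635-85177790 (Pgf). All 7 are protein coding, and Dach2 is X-linked. The loci span 11.2 kb for Pgf, 60.1 kb for Fbln2 and between 204 kb and 539 kb for the other 5. Rnf220 overlaps 3 genes on the opposite strand (Gm12827, Gm12828 and Gm12843). Of the 7 genes, 6 had promoter entries in RefSeq (GRCm38.p6), 9 promoters in all, each from 250 bases before to 50 bases after a transcription start. These windows are shown because Atoh1, the proneural factor of GNPs, recognises E-boxes (CANNTG, the same on both strands). An E-box was present in 7 of the 9 promoters, against 72.3% of all 32851 promoters. The letters CAGCTG were in 1 of 9 against 16.3%, CAGATG or its reverse complement CATCTG in 1 of 9 against 17.2%, and the Gli motif TGGGTGGTC on either strand in 0 of 9 against 0.253%. A match of letters is not a binding site. E-boxes are in capitals in the promoters of Btbd11 (chr10:85386564-85386863 and the internal start at chr10:85598161-85598460, plus strand), Fbln2 (chr6:91212514-91212813, plus strand, with the CATCTG) and Pgf (chr12:85175933-85176232, minus strand, with the CAGCTG):
Btbd11 first start: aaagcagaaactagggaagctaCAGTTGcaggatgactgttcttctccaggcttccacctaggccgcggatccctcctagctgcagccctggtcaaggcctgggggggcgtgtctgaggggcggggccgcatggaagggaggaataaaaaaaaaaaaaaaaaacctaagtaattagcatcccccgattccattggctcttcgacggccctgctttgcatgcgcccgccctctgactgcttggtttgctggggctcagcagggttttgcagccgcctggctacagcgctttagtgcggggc
Btbd11 internal start: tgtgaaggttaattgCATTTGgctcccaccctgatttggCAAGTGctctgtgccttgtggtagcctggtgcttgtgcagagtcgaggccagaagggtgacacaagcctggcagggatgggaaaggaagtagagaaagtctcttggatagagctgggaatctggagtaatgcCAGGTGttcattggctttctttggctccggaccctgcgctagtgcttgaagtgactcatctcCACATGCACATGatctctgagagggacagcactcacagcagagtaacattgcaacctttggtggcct
Fbln2: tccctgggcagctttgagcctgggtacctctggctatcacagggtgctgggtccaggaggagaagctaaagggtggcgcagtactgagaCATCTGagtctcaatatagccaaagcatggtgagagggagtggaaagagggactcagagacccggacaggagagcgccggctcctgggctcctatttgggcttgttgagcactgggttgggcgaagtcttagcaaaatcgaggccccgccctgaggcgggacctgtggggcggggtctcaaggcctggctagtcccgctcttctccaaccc
Pgf: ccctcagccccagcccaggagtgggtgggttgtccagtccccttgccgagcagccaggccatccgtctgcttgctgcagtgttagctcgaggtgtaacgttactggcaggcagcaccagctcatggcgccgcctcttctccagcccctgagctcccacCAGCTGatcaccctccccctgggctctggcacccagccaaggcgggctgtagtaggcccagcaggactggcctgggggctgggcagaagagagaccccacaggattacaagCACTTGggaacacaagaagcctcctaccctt
The internal Btbd11 start had the most E-boxes of the 9, with 5 matches. Neither Sdk2 nor the second Dach2 promoter held any.

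The deposited matrices held 4857 control barcodes with 22325208 counts of unique molecular identifiers (UMIs) and 6946 barcodes of the library labelled cKO with 33726533 UMIs, at medians of 4072 and 4161.5 UMIs per nucleus. After filtering, 4667 and 6555 nuclei remained, and the libraries had 9 barcode sequences in common. Tox3 itself was not lower under the cKO label. It stood at 104 UMIs per 1000000 UMIs of all genes (CPM) in control and 118 CPM under the cKO label, a ratio of 1.14 (95% interval 1.08 to 1.20), and at 249.8 and 549 CPM in GNP-like nuclei. UMIs counted from the polyadenylated end can come from a transcript that lacks the floxed exon, so they do not measure the deletion, and the library is called by its label throughout. Xist UMIs were found in 47.0% of the control and 63.2% of the cKO-labelled nuclei, so the mix of sexes differed. Low-depth droplets made up 1014 and 701 nuclei and were left out of the named classes.

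Nuclei were grouped by marker genes into 505 control and 116 cKO-labelled GNP-like nuclei, 1531 and 1906 GN-like nuclei, and 8 classes outside the granule lineage with 1556 and 3721 nuclei. The GNP-like class was named by 11 GNP markers, so their level in it is no independent check of the label. The list pools division genes such as Mki67 with progenitor genes such as Gli2. The mitotic cluster held 266 of the 505 control and 70 of the 116 cKO-labelled GNP-like nuclei. The 11 markers summed to 2995 CPM in control and 2922 CPM in the cKO-labelled library. Control held UMIs of all 11 and the library labelled cKO of 10, with Atoh1 at 0. The 8 GN markers in GNP-like nuclei summed to 5125 and 5133 CPM. The ratios below divide the CPM of the library labelled cKO by that of control, with exact 95% intervals that cover counting error only, and a call is a difference of at least 2-fold in a gene that had 20 or more UMIs when the libraries were added. No test between the groups is possible with 1 library each.

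In GNP-like nuclei all 7 genes were at least 2-fold lower in the library labelled cKO, which is how they were chosen, against a background of 11.1% of 11126 genes lower and 4.25% higher. Btbd11 stood at 1058 CPM in control (2143 UMIs) and 91.5 CPM in the cKO-labelled library (39 UMIs). Dach2 stood at 220.6 and 14.1 CPM (447 and 6 UMIs). Gsg1l kept more of its level, at 617 and 155 CPM (1250 and 66 UMIs). Rnf220 kept the largest share of the 7, at 172 and 68.1 CPM (349 and 29 UMIs), a ratio of 0.395. That ratio was 0.764 when the clusters were made at resolution 0.4, 0.652 without integration of the libraries and 0.641 with no doublet removal, each less than a 2-fold difference. Fbln2 was left with 1 UMI, at 90.3 and 2.35 CPM (183 and 1 UMIs). Pgf, the lowest in number of UMIs, stood at 38.5 and 9.39 CPM (78 and 4 UMIs). Sdk2 was at 61.7 CPM (125 UMIs) in control and at 0 UMIs in the cKO-labelled library. Against 3 counts that is at least 8.76-fold lower, and the exact upper limit of the ratio is 0.142. By the same limit of 3 counts, which is not the Clopper-Pearson limit, a count of 0 in 116 nuclei allows Sdk2 UMIs in up to 2.59% of them. Btbd11 was seen in 83.8% of control GNP-like nuclei and in 21.6% of those of the library labelled cKO, at median depths of 3739 and 3455.5 UMIs. In microglia-like nuclei, which should lack it, the shares were 13% and 2.65% at 2917.5 and 2546 UMIs. With every nucleus thinned to 1000 UMIs, the GNP-like shares were 57.6% and 6.96%.

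**Figure D1:**
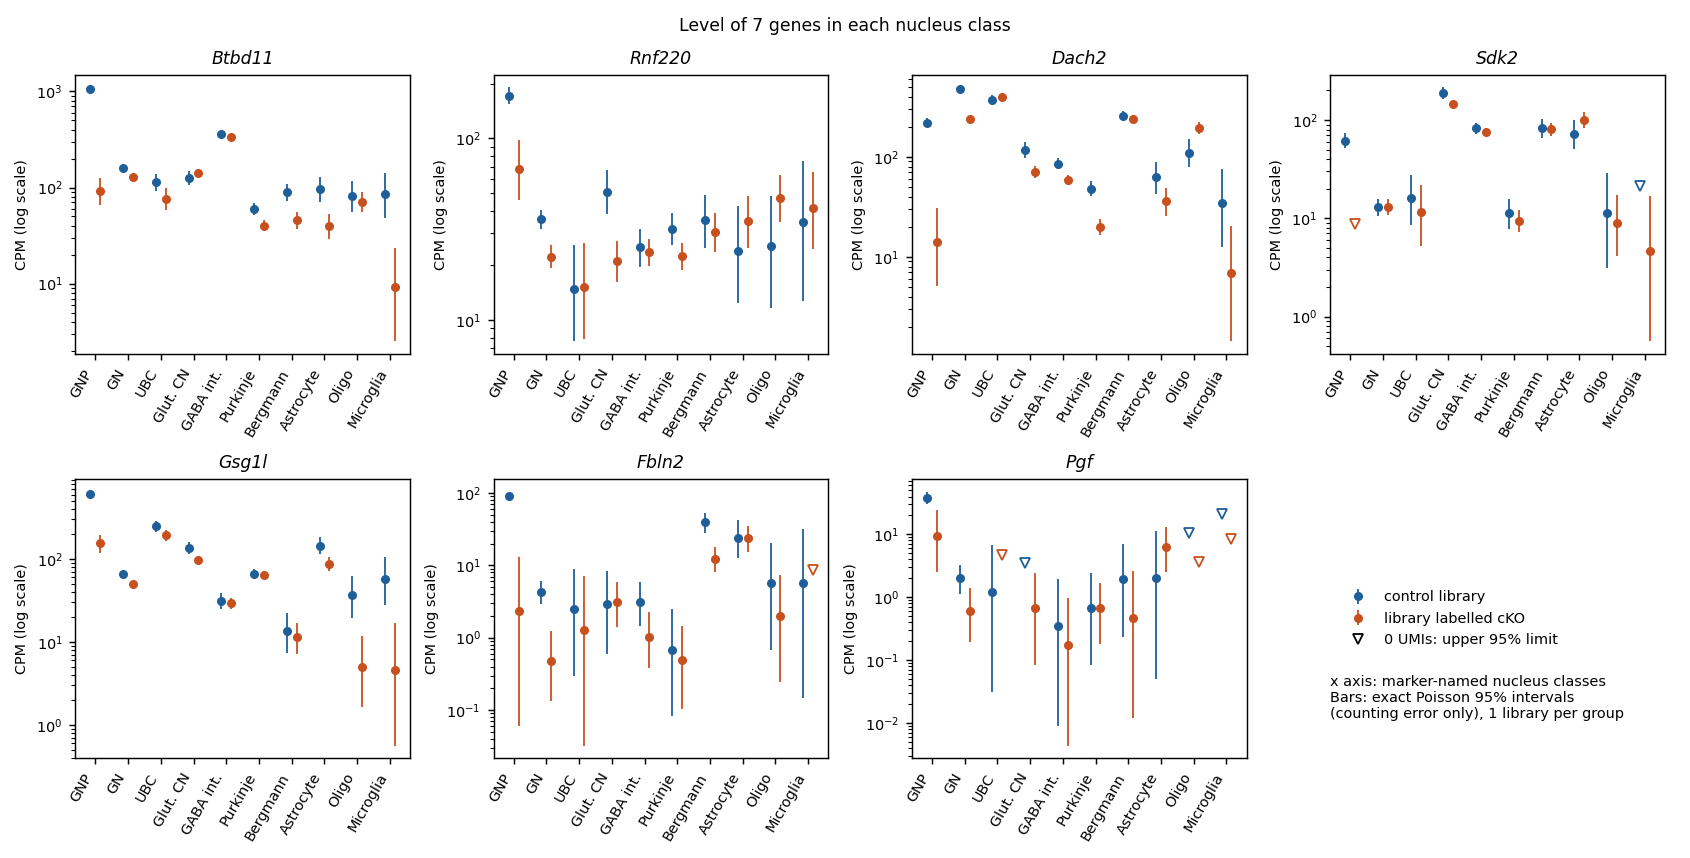
Level of each gene in CPM (log axis) in 10 marker-named classes, with blue points for the control library and orange points for the library labelled cKO, exact Poisson 95% intervals as bars and open triangles at the upper limit of a count of 0. Btbd11, Gsg1l, Fbln2, Pgf and Rnf220 peaked in control GNP-like nuclei, Dach2 in GN-like nuclei (481 CPM) and Sdk2 in glutamatergic nuclear neurons (187 CPM).

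The 7 genes differed widely in how far they were GNP genes at all. In control, the granule lineage held 86.1% of all Pgf UMIs, 76.0% of Dach2 UMIs, 70.0% of Fbln2 UMIs, 66.8% of Gsg1l UMIs, 65.7% of Btbd11 UMIs and 63.1% of Rnf220 UMIs, but only 23.6% of Sdk2 UMIs. These shares depend on how many nuclei of each class were caught. GNP-like nuclei alone held 72.2% of Pgf UMIs and 8.3% of Dach2 UMIs. In the library labelled cKO the classes outside the lineage held 88.0% of the remaining Fbln2 UMIs, 81.4% of Sdk2 UMIs and 70.5% of Btbd11 UMIs. The whole-library ratio of Sdk2 was 1.09 (1.01 to 1.19), on the other side of 1 from its ratio in GNP-like nuclei, and 64.3% of its control UMIs lay outside the lineage. For the other 6 the whole-library ratios ran from 0.170 (Pgf) to 0.553 (Rnf220). Whole-library ratios also carry the mix of classes, which differed between the libraries. GNP-like nuclei were 10.8% of control and 1.77% of cKO-labelled nuclei, and the classes outside the lineage were 33.3% and 56.8%. The Sdk2 ratio was 1.02 in GN-like nuclei and 0.901 outside the lineage with the classes as strata.

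Among the granule neurons, the ratios of Btbd11, Gsg1l, Rnf220 and Dach2 were lowest in a cluster with Cntn2 among its leading genes. The 11 GNP markers were also lower in GN-like nuclei, at 275 CPM in control and 168 under the cKO label, where Atoh1 was at 0, and 4 of them met the naming limits in that cluster. Their part in the ratios was not tested. GN-like nuclei fell into 4 clusters, and the one with Cntn2, a marker of newly postmitotic granule neurons, held 252 control and 220 cKO-labelled nuclei. Btbd11 stood there at 128 and 19.3 CPM, a ratio of 0.152 (0.0783 to 0.27). In the most populous GN-like cluster, led by Svep1, Btbd11 was nearly level at 120.2 and 113 CPM, a ratio of 0.937 (0.816 to 1.08). Gsg1l followed the same course, with a ratio of 0.0432 (0.00511 to 0.163) on 60 and 2 UMIs in the Cntn2 cluster and 0.894 (0.771 to 1.04) in the Svep1 cluster. Rnf220 had ratios of 0.410 (0.277 to 0.595) and 1.05 (0.730 to 1.53) in these clusters. Thus 3 genes that were low in cKO-labelled GNP-like nuclei stood near the control level in the Svep1 cluster. Btbd11 at 120.2 CPM there stands beside 113.9 CPM in control low-depth droplets and 86.3 CPM in control microglia-like nuclei. Over all control GN-like nuclei, Gsg1l stood at 65.2 CPM beside 57.5 CPM in microglia-like nuclei. Rnf220 stood at 35.9 CPM beside 34.5 CPM there and 70.6 CPM in low-depth droplets. What these levels mean for the ratios was not tested. The Kcnip4 cluster, where Btbd11 was highest among the GN-like clusters, had 346 and 272 CPM, a ratio of 0.787 (0.701 to 0.884).

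Dach2 stayed below the control level in every GN-like cluster. It was the only gene of the 7 with a higher control level in GN-like than in GNP-like nuclei, 481 against 220.6 CPM. Its ratio was 0.117 (0.0699 to 0.185) in the Cntn2 cluster, 0.362 (0.313 to 0.419) in the Cxcl12 cluster, 0.502 (0.463 to 0.544) in the Svep1 cluster and 0.581 (0.529 to 0.639) in the Kcnip4 cluster. Over all GN-like nuclei it stood at 240 CPM in the cKO-labelled library, a ratio of 0.499 (0.472 to 0.527) on 3624 and 1985 UMIs. As Dach2 is X-linked and the sexes were mixed unequally, nuclei were also split by Xist. The ratio was 0.509 (0.476 to 0.545) in GN-like nuclei with an Xist UMI and 0.476 (0.427 to 0.529) in those with a Y-linked and no Xist UMI.

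In GN-like nuclei as a whole, 3 of the 7 genes were at least 2-fold lower (Dach2, Fbln2 and Pgf) and 0 at least 2-fold higher, against 2.31% lower and 1.39% higher of 15716 genes. GN-like nuclei were part of the whole-library values by which genes were chosen, and held 67.7% of control Dach2 UMIs, so this count is a description and nothing is read from it. The Dach2 call lies on the 2-fold limit, since the ratio was 0.504 without integration, 0.506 with median-of-ratios scaling and 0.501 after thinning to 1000 UMIs. Fbln2 and Pgf were near the floor there, with 32 and 4 UMIs for Fbln2 (4.25 and 0.484 CPM) and 15 and 5 UMIs for Pgf (1.99 and 0.604 CPM). Of the 32 control Fbln2 UMIs, 14 lay in the Cntn2 cluster, where the library labelled cKO had 0. Against 3 counts that is at least 3.60-fold lower, with an exact upper limit of the ratio at 0.39. Btbd11 had a ratio of 0.817 (0.751 to 0.888), Gsg1l of 0.764 (0.668 to 0.872) and Rnf220 of 0.624 (0.514 to 0.755). At resolution 0.4 the GN-like nuclei were a different population, without the Kcnip4 cluster (392 and 470 nuclei, unnamed there) and with a cluster of 487 and 257 nuclei in which 6 GNP markers met the naming limits. The ratio was then 0.305 for Btbd11, 0.393 for Gsg1l and 0.414 for Rnf220. Thinning to 1000 UMIs put Gsg1l at 0.493. Without the Cntn2 cluster, a choice made after seeing the data, the ratio of Rnf220 was 0.859 (0.679 to 1.09). Sdk2 was low in GN-like nuclei of both libraries, at 12.9 and 13.2 CPM, with a ratio of 1.02 (0.771 to 1.36).

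**Figure D2:**
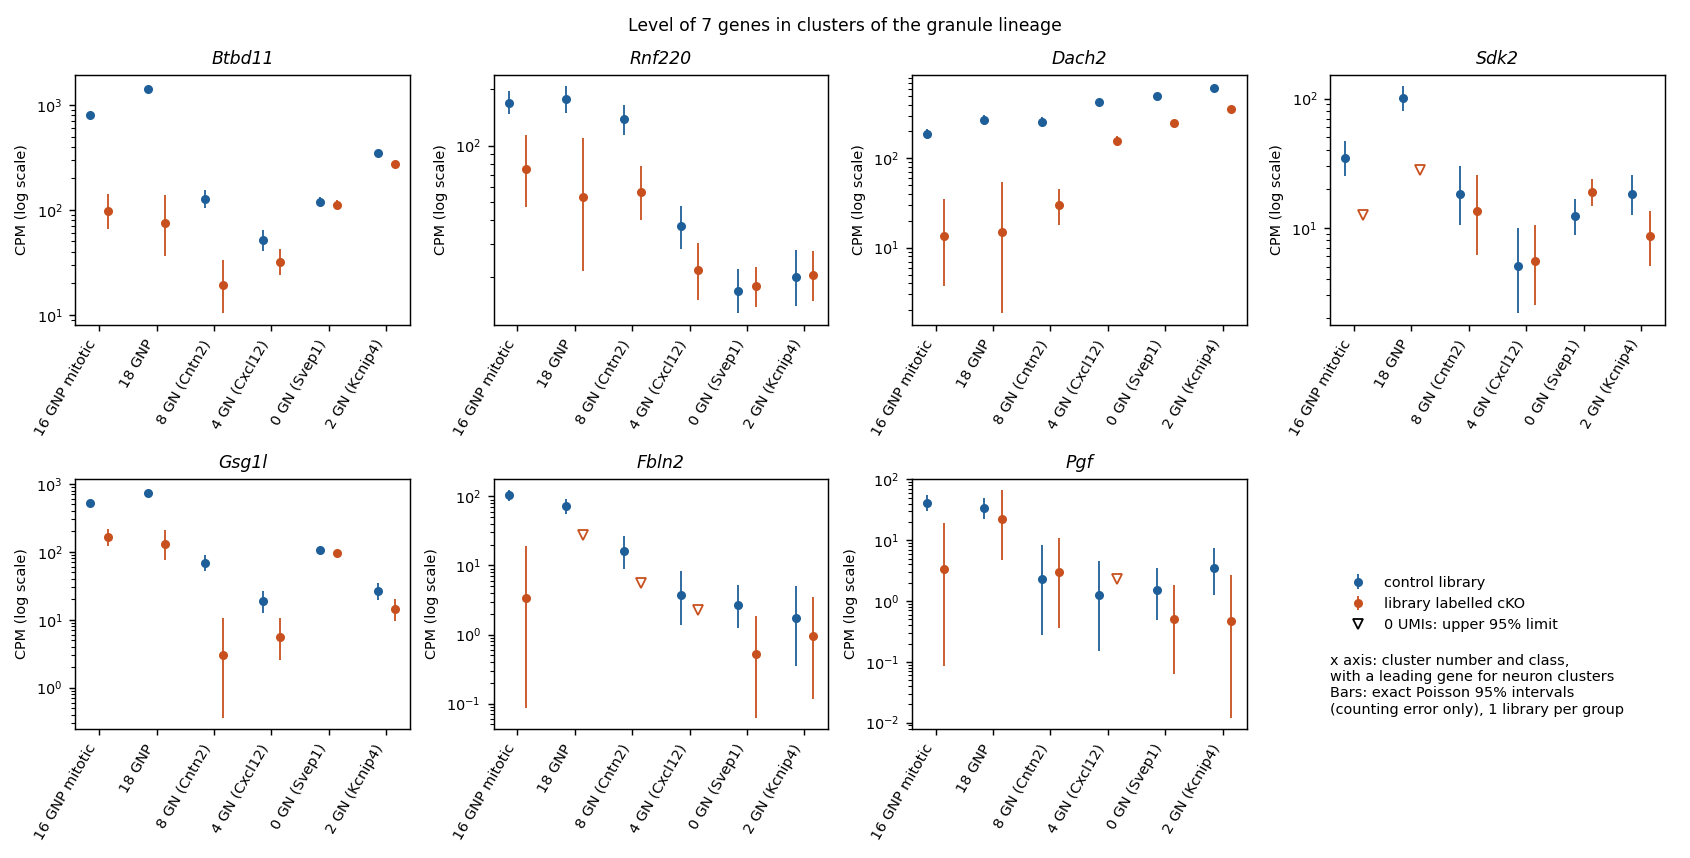
Level of each gene in CPM (log axis) in the GNP-like clusters 16 (mitotic) and 18 and in the 4 GN-like clusters, named by a leading gene, with blue points for control, orange points for the library labelled cKO, exact Poisson 95% intervals and open triangles at the upper limit of a count of 0. Btbd11, Gsg1l and Rnf220 are apart in the Cntn2 cluster and overlap in the Svep1 cluster, whereas the Dach2 points stay apart in all 6 clusters.

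Outside the granule lineage the differences were small for most of the 7. With the 8 classes as strata, a Mantel-Haenszel ratio was formed for each gene. Fbln2 was the only 1 of 7 at least 2-fold lower and 0 of 7 were at least 2-fold higher, against 1.47% lower and 1.38% higher of 18864 genes. These nuclei too were part of the whole-library values. The ratio of Fbln2 was 0.473 (0.340 to 0.657) on 72 and 73 UMIs. The call was lost after thinning to 1000 UMIs, at 0.506 (0.255 to 1.00), and in nuclei with a Y-linked and no Xist UMI, at 0.814 (0.444 to 1.49). The ratios were 0.801 (0.729 to 0.880) for Gsg1l, 0.811 (0.752 to 0.874) for Dach2, 0.813 (0.705 to 0.938) for Rnf220, 0.865 (0.813 to 0.919) for Btbd11 and 0.901 (0.817 to 0.993) for Sdk2. Pgf could not be judged, at 1.03 (0.405 to 2.61) on 7 and 15 UMIs. On the log2 scale the median over all genes tested outside the lineage was -0.01, and 5 of the 7 genes lay between -0.32 and -0.15.

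The values in microglia-like nuclei stand beside these ratios, and their part in them was not tested. Microglia-like nuclei, whose defining genes Cx3cr1, Csf1r and P2ry12 were all detected, should lack Btbd11 and Gsg1l. They held 15 Btbd11 UMIs in 54 control nuclei and 4 in 151 cKO-labelled nuclei, or 86.3 and 9.22 CPM. Of the 15 control UMIs, 13 lay in 5 nuclei, so they were not spread evenly over the class. Gsg1l stood at 10 and 2 UMIs (57.5 and 4.61 CPM) and Dach2 at 6 and 3 UMIs (34.5 and 6.92 CPM). Rnf220 stood there at 34.5 and 41.5 CPM, a ratio of 1.20 whose interval (0.457 to 3.70) held 1. Sdk2 had 0 and 2 UMIs, too few to judge. The 11 GNP markers went from 650.3 to 731 CPM in microglia-like nuclei and were lower in the other 7 classes outside the lineage, with ratios of 0.667 to 0.898. The 8 GN markers were lower in 7 of the 8 classes outside the lineage, from 664 to 305 CPM in Purkinje cell-like nuclei and from 639 to 288 CPM in microglia-like nuclei, and higher in unipolar brush cell-like nuclei, from 2382 to 2589 CPM. The range of their summed level over the 8 classes was 536 to 2382 CPM in control and 288 to 2589 CPM in the cKO-labelled library, and Grm4 was at 0 in control microglia-like and astrocyte-like nuclei. Low-depth droplets held 113.9 and 97.1 CPM of Btbd11, 89.4 and 47.5 CPM of Gsg1l and 141 and 79.9 CPM of Dach2. An alternative added after the data had been seen subtracted the microglia-like UMIs per nucleus of the same library from every other class, for the 3 genes that were lower in microglia-like nuclei. It takes more from control by construction, so a higher ratio follows from that choice and is no evidence on the difference. The ratios outside the lineage became 1.14 (0.935 to 1.38) for Btbd11, 1.29 (0.836 to 1.99) for Gsg1l and 0.922 (0.776 to 1.10) for Dach2.

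**Figure D3:**
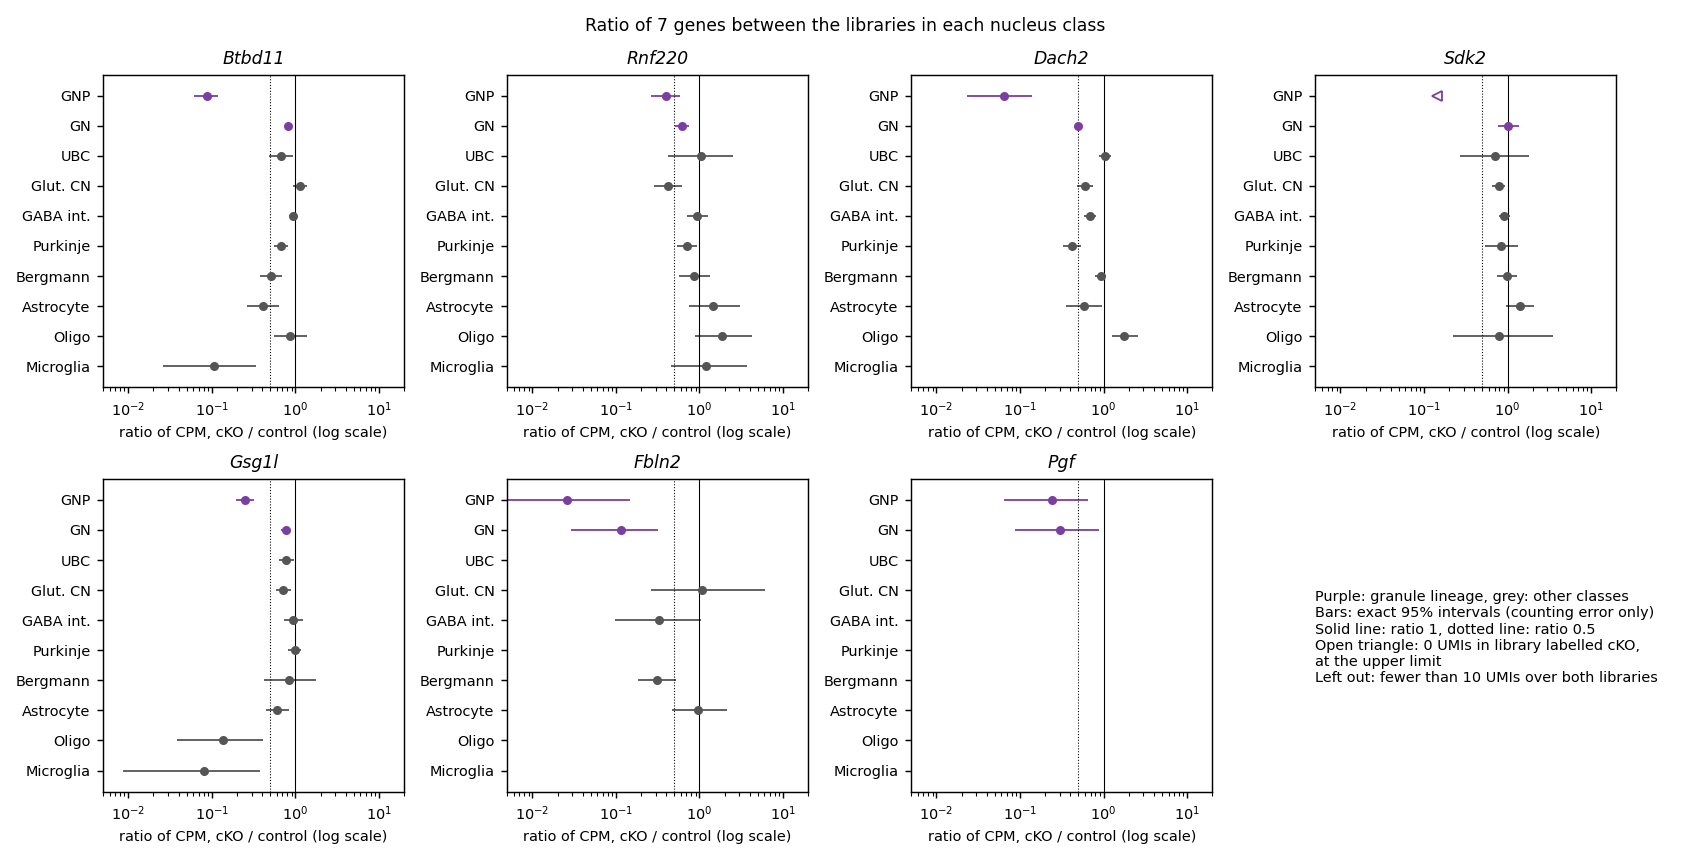
Ratio of CPM between the library labelled cKO and control (log axis) for each gene and class, with exact 95% intervals, the granule lineage in purple, other classes in grey, a solid line at 1 and a dotted line at 0.5. Outside the lineage the ratios of Btbd11 in GABAergic interneurons (0.939) and of Dach2 in unipolar brush cells (1.05) lie at the line of 1, and that of Fbln2 in Bergmann glia (0.311) lies below 0.5.

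Btbd11 had a clear second site of expression, the GABAergic interneurons. Their control level of 358 CPM (1027 UMIs) was 4.15 times that of microglia-like nuclei and stood second in the order of classes, ahead of GN-like nuclei at 159 CPM. Below these, glutamatergic cerebellar nuclear (CN) neurons (126 CPM), unipolar brush cells (UBCs, 113 CPM), astrocytes (96.7 CPM), Bergmann glia (89.3 CPM), microglia (86.3 CPM) and the oligodendrocyte lineage (82.2 CPM) did not differ from their neighbours beyond counting error. In interneurons the library labelled cKO had 336 CPM (1951 UMIs), a ratio of 0.939 (0.870 to 1.01). Among the 4 interneuron clusters the ratio ran from 0.837 in the cluster led by Scube1 to 1.14 in the Angpt1 cluster. CN neurons had 126 and 142 CPM, a ratio of 1.13 (0.927 to 1.39). The 5 classes with an interval below 1 were Bergmann glia, microglia, astrocytes, Purkinje cells and UBCs, and in none of them did the control level exceed that of microglia-like nuclei beyond counting error.

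Gsg1l was expressed in UBCs at 247.7 CPM in control, second only to GNP-like nuclei, followed by astrocytes (145 CPM) and CN neurons (135 CPM), which did not differ beyond counting error. These 3 classes stood above microglia-like nuclei, and each was lower in the library labelled cKO. The ratio was 0.782 (0.629 to 0.970) in UBCs, 0.604 (0.440 to 0.830) in astrocytes and 0.718 (0.585 to 0.885) in CN neurons. In CN neurons with an Xist UMI the ratio was 0.896 (0.677 to 1.20), and in those with a Y-linked and no Xist UMI it was 0.501 (0.342 to 0.729). Purkinje cells, with 66.3 and 64.8 CPM, had a ratio of 0.978 (0.822 to 1.17). The oligodendrocyte lineage went from 13 to 5 UMIs (36.8 to 5.02 CPM), at a control level below that of microglia-like nuclei.

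In control Dach2 stood at 375 CPM in UBCs, 257 CPM in Bergmann glia, 117 CPM in CN neurons and 111 CPM in the oligodendrocyte lineage, all above the 34.5 CPM of microglia-like nuclei. UBCs, which like granule neurons arise from the rhombic lip, held 304 and 309 UMIs, a ratio of 1.05 (0.894 to 1.24). Bergmann glia held 257 and 239 CPM, a ratio of 0.929 (0.80 to 1.08). The level was lower in CN neurons (70.3 CPM in the cKO-labelled library), with a ratio of 0.600 (0.477 to 0.757), and in Purkinje cells (48.3 and 20.1 CPM), with 0.417 (0.324 to 0.535). Interneurons (0.686, 0.580 to 0.812) and astrocytes (0.578, 0.353 to 0.956) were lower too. In Purkinje cells, interneurons and astrocytes the control level did not exceed that of microglia-like nuclei beyond counting error. Without the 5 highest nuclei of each library their ratios were 0.505, 0.761 and 0.813. Of the 122 control UMIs of CN neurons, 26 came from 1 nucleus, and without the 5 highest nuclei of each library the ratio there was 0.843. In CN neurons with an Xist UMI it was 0.758 (0.559 to 1.04), and in those with a Y-linked and no Xist UMI 0.397 (0.249 to 0.620). The oligodendrocyte lineage moved the other way, from 111 to 196 CPM on 39 and 195 UMIs, a ratio of 1.77 (1.25 to 2.57).

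Sdk2 was highest in CN neurons, at 187 CPM in control. GABAergic interneurons (82.7 CPM), Bergmann glia (82.6 CPM), astrocytes (72.5 CPM) and GNP-like nuclei (61.7 CPM) stood below it beyond counting error, and none of these 4 differed from the next in order beyond counting error. Purkinje cells stood at 11.2 CPM, and control microglia-like nuclei had 0 UMIs in 54 nuclei. In CN neurons the library labelled cKO had 146 CPM, a ratio of 0.780 (0.657 to 0.928) on 195 and 428 UMIs, the only class outside the lineage with an interval below 1. Of the 195 control UMIs, 63 lay in 5 nuclei, and without the 5 highest nuclei of each library the ratio was 0.881. The sex-linked split divided the ratio, at 1.08 (0.850 to 1.38) in CN neurons with an Xist UMI and 0.363 (0.252 to 0.515) in those with a Y-linked and no Xist UMI. Bergmann glia (0.981, 0.753 to 1.29) and interneurons (0.917, 0.782 to 1.08) had intervals that held 1, and in astrocytes the ratio was 1.39 (0.95 to 2.09). An unnamed cluster led by Dchs2, with 54 and 98 nuclei, held as much Sdk2 as CN neurons, 187 and 197 CPM. Loss of Sdk2 UMIs of the size seen in GNP-like nuclei was thus found in no class outside the lineage that had 20 or more Sdk2 UMIs.

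Rnf220 was low in the 8 classes outside the lineage. Fibroblast- and mural-like nuclei, only 7 and 13 and too few to form a class, stood higher, at 249.5 and 419 CPM on 8 and 24 UMIs. Among the classes, its next level after GNP-like nuclei was that of CN neurons, 50.9 CPM in control on 53 UMIs, and from GN-like nuclei (35.9 CPM) down to UBCs (14.8 CPM) no class differed from the next beyond counting error. CN neurons had 21.2 CPM in the cKO-labelled library, a ratio of 0.416 (0.283 to 0.611). Of the 53 control UMIs, 27 came from 1 nucleus, and without the 5 highest nuclei of each library the ratio was 0.931. In Purkinje cells the values were 31.9 and 22.4 CPM, a ratio of 0.702 (0.536 to 0.924). There 16 of the 94 control UMIs came from 1 nucleus, and without the 5 highest nuclei of each library the ratio was 0.856. The other 6 classes had intervals that held 1, among them interneurons at 0.940 (0.702 to 1.27) and the oligodendrocyte lineage at 1.85 (0.896 to 4.29). Thinning to 1000 UMIs left few Rnf220 UMIs and turned the ratio outside the lineage to 1.07. Summed over the 8 classes the ratio was 0.841, and 0.971 without the 5 highest nuclei of each library. Microglia-like nuclei held 6 and 18 UMIs (34.5 and 41.5 CPM), so the control level of CN neurons was 1.47 times theirs and did not exceed it beyond counting error.

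After GNP-like nuclei, Fbln2 stood highest in 2 glial classes, Bergmann glia and astrocytes. Neither differed beyond counting error from the next class in order, which for astrocytes was microglia-like nuclei. Control Bergmann glia held 39.4 CPM (41 UMIs) and astrocytes 24.2 CPM (12 UMIs), and the other 6 classes outside the lineage had between 0.680 and 5.75 CPM. In the library labelled cKO, Bergmann glia stood at 12.2 CPM (26 UMIs), a ratio of 0.311 (0.183 to 0.521), and astrocytes at 23.5 CPM (26 UMIs), a ratio of 0.971 (0.473 to 2.11). Fbln2 was seen in 13.9% of control Bergmann glia and 3.60% of those labelled cKO, at 4262.5 and 3664 UMIs per nucleus. The shares in Purkinje cells were 0.685% and 0.417% at 9282.5 and 7956 UMIs. In Bergmann glia the GNP markers summed to 910 and 817 CPM and the GN markers to 1264 and 1199 CPM. The 6 Bergmann glia markers, by which the class was named, summed to 10294 and 9945 CPM. Low-depth droplets held 5.54% of all control Fbln2 UMIs and 2.41% of those labelled cKO. Without the 5 highest nuclei of each library they stood at 17.4 and 0 CPM, Bergmann glia at 29.9 and 7.13 CPM and astrocytes at 12.6 and 16.5 CPM. What these sums and droplet values mean for the Fbln2 ratio was not tested. The split by sex-linked UMIs divided this value too. In Bergmann glia with an Xist UMI the counts were 24 and 13, a ratio of 0.192 (0.0899 to 0.393), and in those with a Y-linked and no Xist UMI 13 and 12, a ratio of 0.840 (0.350 to 2.0).

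Pgf was close to a GNP-only gene. Outside the lineage it had 7 UMIs in 1556 control nuclei and 15 in 3721 cKO-labelled nuclei, and 7 of the 15 lay in astrocytes (6.32 CPM, against 2.01 CPM on 1 UMI in control). Control CN neurons, microglia and oligodendrocyte-lineage nuclei had 0 UMIs. A difference outside the lineage was not detectable at this depth. Within GNP-like nuclei, Pgf stood at 41.5 and 3.40 CPM in the mitotic cluster (50 and 1 UMIs) and at 34.1 and 22.8 CPM in the other (28 and 3 UMIs), where the ratio of 0.667 (0.130 to 2.16) held 1.

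The profiles of the 7 genes over 10 control classes were compared as log2(CPM + 5) by Pearson's r, as a description with no p, since the classes share a library and differ in depth. Pgf and Rnf220 were the pair most alike (r = 0.84), followed by Btbd11 and Pgf (0.81) and Fbln2 and Pgf (0.79), and Rnf220 and Dach2 the least (0.11). Among 12981 other genes, the nearest to Pgf were Gm49189 (0.95), Mycn (0.94), which encodes a driver of GNP division, and Gse1 (0.94). Mycn is itself among the markers that named the GNP-like class. Pgf stood at 38.5 CPM in GNP-like nuclei and at no more than 2.01 CPM in any other class. Its r values, also those with other members, therefore rest mostly on that class. Rnf220 was nearest to Amd1 (0.92), Nop56 (0.91) and Col18a1 (0.90). Btbd11 was nearest to Ubqln4 (0.95), Nmral1 (0.94) and Gm5577 (0.94). Dach2 was nearest to Pax6os1 (0.92), transcribed opposite to the GN marker Pax6, then Stard4 (0.91) and Aacs (0.91). Sdk2 was nearest to Bbox1 (0.95), Plch1 (0.92) and Rnf217 (0.92), Gsg1l to Mipep (0.89), Cpne3 (0.86) and Gclc (0.85), and Fbln2 to Ccp110 (0.97), Adk (0.96) and Gm50163 (0.95).

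Families and partners of the 7 genes, 46 genes in all, mostly did not share their course. Outside the lineage 1 of 44 tested was at least 2-fold lower and 0 higher, a share near the background of 1.47%, with a median log2 ratio of 0.00. The 1 was Vegfd, on 23 UMIs in all. In GN-like nuclei 1 of 35 was lower (Cnih3) and 1 higher (Cacng3). In GNP-like nuclei 6 of 31 were lower and 2 higher, beside the background of 11.1% and 4.25%. Eya1, whose protein works with Dach factors, stood there at 61.2 and 2.35 CPM (124 and 1 UMIs), a ratio of 0.0383 (0.000963 to 0.218), and outside the lineage at a ratio of 1.26 (1.11 to 1.43). Dach1, the paralog of Dach2, was abundant and nearly level, at 1649.5 and 1419.9 CPM in GNP-like nuclei, a ratio of 0.861 (0.788 to 0.939). Abtb2, the paralog of Btbd11, stood at 61.2 and 18.8 CPM, a ratio of 0.307 (0.130 to 0.623). Sdk1, the paralog of Sdk2, stood at 555 and 357 CPM, a ratio of 0.643 (0.539 to 0.762). Among the AMPA receptor subunits and auxiliary proteins that Gsg1l belongs with, Cacng5 was lower (47 and 1 UMIs), Cnih3 was lower on 42 and 3 UMIs and Shisa6 was higher on 14 and 9 UMIs. Vegfa, the paralog of Pgf, had 34 and 1 UMIs, and Hmcn1 of the fibulin family 27 and 1 UMIs. Abtb1 was higher on 20 and 9 UMIs. The intervals of Abtb1, Cnih3 and Hmcn1 in GNP-like nuclei, and of Cnih3 in GN-like nuclei, held 1.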

How the data were processed

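Single-nucleus RNA-seq was made with the 10x Genomics 3' kit from 12 pooled cerebella per group. Per the study's methods and the submitters' processing notes, the authors aligned and counted reads with Cell Ranger 7.0.1 on mm10, and the deposited values are raw UMI counts, whole numbers without normalization. CPM is UMIs of a gene per 1000000 UMIs. The SoupX correction for free RNA named in the methods is not in these values.

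Here, nuclei over 25% mitochondrial UMIs (1 control, 5 labelled cKO) and doublets by Scrublet score (scanpy 1.11.5, top 0.8% per 1000 barcodes, 189 and 386) were removed. Nuclei were integrated and clustered in Seurat 5.3.0 (R 4.3.3, 30 and 20 dimensions, resolution 0.8) with the 7 genes left out of the features. The features used were a smaller set selected from 3000 variable genes per library. Clusters were named, as "-like", by markers: at least 3 detected in 10% of nuclei and 2-fold over the median cluster, mean log2 fold of at least 1, pseudocount 5 CPM. Clusters of low depth or with leading genes of another class stayed unnamed, and classes needed 20 nuclei per library. This rule was fixed with the clusters in view, and names made anew can differ from those of the study. The 7 genes and all lists were chosen with earlier results of these data known. The named genes are the 7, family and partner genes that were called or are close paralogs, and the 3 genes of most similar profile per member among those with at least 100 control UMIs.

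Intervals (95%) are exact Poisson for CPM, Clopper-Pearson for shares, conditional binomial for a ratio and Greenland-Robins for a Mantel-Haenszel ratio. UMI intervals and the limit of 3 counts cover counting error only. No test was run, as each group is 1 library, and nuclei are not replicates. The ratio was tested on simulated data. Gene positions come from GENCODE on GRCm38 (7 of 7 identifiers matched). Python 3.11.15, numpy 2.4.6, scipy 1.17.1, pandas 2.3.3 and matplotlib 3.10.9 were used.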

Additional observations from a re-analysis of the deposited data

Results flagged for a closer look

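Dach2 in oligodendrocyte-lineage-like nuclei had a ratio of 1.77 (95% interval 1.25 to 2.57) between the library labelled cKO and control, while its interval lay below 1 in 5 other classes outside the granule lineage. It drew attention because the direction was opposite, and the difference between classes was not tested. The share of nuclei with a Dach2 UMI went the other way, from 34.2% to 24.6%, and was 10.5% and 13.1% after thinning to 1000 UMIs, so no order is read from the shares. No control nucleus of this class had 5 or more Dach2 UMIs and 9 of 252 nuclei labelled cKO did, and without the 5 highest nuclei of each library the ratio was 1.81. In nuclei with an Xist UMI the ratio was 2.12 (1.31 to 3.62), and in those with a Y-linked and no Xist UMI it was 0.999 (0.519 to 1.97).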

How the results depend on the processing

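Of 252 values recomputed under alternatives, 204 stayed within the counting interval of the main value or held the same count of genes. Another 45 moved outside it or changed the count. The remaining 3 reversed, that is, crossed 1 where the main interval lay off 1. Pgf outside the lineage and Sdk2 in GN-like nuclei had main intervals that held 1. Their ratios also crossed 1 under some alternatives, and these crossings are not among the 3. The cause of each move was not tested. The reversals outside the granule lineage were Rnf220 at 1.07 after thinning to 1000 UMIs, and Btbd11 at 1.14 and Gsg1l at 1.29 after microglia-like UMIs per nucleus were subtracted, which also put Dach2 at 0.922. Outside the lineage, Btbd11 was 0.786 with no doublet removal, 0.783 thinned and 0.728 with single nuclei gated on markers, and Dach2 was 0.752, 0.878 and 0.643 in the same order, 0.717 summed over classes and 0.702 in nuclei with a Y-linked and no Xist UMI. Single-nucleus gating put Fbln2 at 0.319 and Gsg1l at 0.682. Nuclei with a Y-linked and no Xist UMI put Fbln2 at 0.814, Pgf at 0.368 and Sdk2 at 0.787, and the count of genes at least 2-fold lower outside the lineage was then 0, as it was after thinning. In GNP-like nuclei, Rnf220 was 0.764 at resolution 0.4, 0.652 without integration and 0.641 with no doublet removal. Gating gave 0.126 for Btbd11, 0.190 for Dach2 and 0.215 for Sdk2, Y-linked nuclei 0.421 for Gsg1l and 0 for Fbln2, and thinning 0 for Fbln2. In GN-like nuclei, resolution 0.4 gave 0.305 for Btbd11, 0.469 for Dach2, 0.0243 for Fbln2, 0.393 for Gsg1l, 0.414 for Rnf220 and 0.641 for Sdk2. Gating gave 0.955 for Btbd11, 0.380 for Fbln2 and 0.597 for Gsg1l. Y-linked nuclei gave 0.736, 0.584 and 0.609 for these genes. Thinning gave 0.732 for Btbd11, 0.493 for Gsg1l and 1.43 for Sdk2. Dach2 was 0.449 and Btbd11 0.712 with no doublet removal, Dach2 0.453 and Sdk2 1.36 with the members among the clustering features, and Rnf220 0.859 without the Cntn2 cluster. Pgf outside the lineage had no value after thinning, as no control UMI was left, and subtraction was run only for the 3 genes that were lower in microglia-like nuclei, a choice that raises their ratios by construction. No paired analysis was possible because each group is 1 library. The main limits are that library and genotype cannot be told apart, that Fbln2 and Pgf rest on few UMIs outside the lineage, and that microglia-like nuclei, with at most 15 control UMIs for any of the 3 genes and 13 of those 15 in 5 nuclei, are a coarse basis for subtraction.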
